A study of Rattus norvegicus with 9 samples.

Results

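The data are 10 cytokine and receptor genes of the interleukin-1 (IL-1) and interleukin-6 (IL-6) families in rat aortic smooth muscle cells, taken by symbol from 32623 genes. They are the IL-33 receptor gene Il1rl1, its ligand gene Il33, the IL-1 receptor gene Il1r1, the shared accessory receptor gene Il1rap, Il1b, Il6, the signal transducer gene Il6st, Il6r, Lif and Osmr. All 10 were found, and 9 passed the filter on low values. Il1rl1 was chosen by its measured fall with PDGF-BB in these same libraries, so its values are a description with no test. The others were picked as its relatives.

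The libraries came from wild-type primary aortic vascular smooth muscle cells of the rat, with 3 libraries in each of 3 groups. PDGF-BB+PTUPB cells had 0.5 µM PTUPB, an inhibitor of cyclooxygenase-2 and soluble epoxide hydrolase, for 2 h before platelet-derived growth factor BB (PDGF-BB) for 24 h. PDGF-BB cells had only the growth factor for 24 h; the dose is 10 ng/mL in the sample labels but 20 ng/mL in the design text. Control cells had DMSO. Cells of every group were at passage 4 to 8, grown in 20% serum, starved of serum for 12 h and treated in 2% serum. Strain, sex and age of the rats are not given in the sources used here. The labels do not state separate cultures for the libraries of 1 group, so p-values reflect the spread among these libraries alone, and that spread may be technical.

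IL-1 family receptors signal in pairs. Il1r1 binds IL-1 and Il1rl1 (ST2) binds IL-33, and each then recruits the Il1rap chain, which engages the adaptor MyD88 and leads to NF-kB. Il1rl1 gives a membrane receptor and a secreted decoy from alternative transcripts, and was described in rat fibroblasts as a Fos-responsive gene. IL-6 family cytokines share the chain gp130 (Il6st), which pairs with Il6r for IL-6, with Lifr for leukaemia inhibitory factor (Lif) and with Osmr for oncostatin M, and signals through JAK kinases and STAT factors. In the vessel wall these cytokines are known as inflammatory signals. Values here are per gene, so both forms of Il1rl1 are summed, and in bulk cultures fewer cells of a kind and less RNA per cell cannot be told apart.

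Library totals ran from 12729187 to 16911050 counts. Control replicate 2 and PDGF-BB replicate 3 lay apart on the second principal component (13.9% of the variance), at -19.3 and -24.3, against 0.755 to 17.5 for the other 7 libraries. Their gene-length trends were -0.392 and -0.383, against -0.129 to 0.356 for the other 7 (a description). A trend is the Spearman correlation, across genes, of exonic length with the log2 deviation from the other 2 libraries of the group. Trends within a group are therefore linked. Of the smooth muscle genes, Tagln and Acta2 averaged 1299 and 659 FPKM (fragments scaled to exon length and library depth) in Control cells, while Des and Myocd stayed at or below 1 FPKM in all libraries. Markers of blood cells known to carry Il1rl1 were at or near 0: the mast cell genes Cpa3, Tpsab1, Tpsb2, Fcer1a, Ms4a2 and Cma1 and the T cell genes Cd3e, Cd3d and Cd4 had 0 counts in all 9 libraries. The 9 mast cell markers in the file summed to at most 0.78 FPKM in a library, the 9 lymphocyte markers to at most 0.35 FPKM and the 9 endothelial markers to at most 0.84 FPKM.

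**Figure D1:**
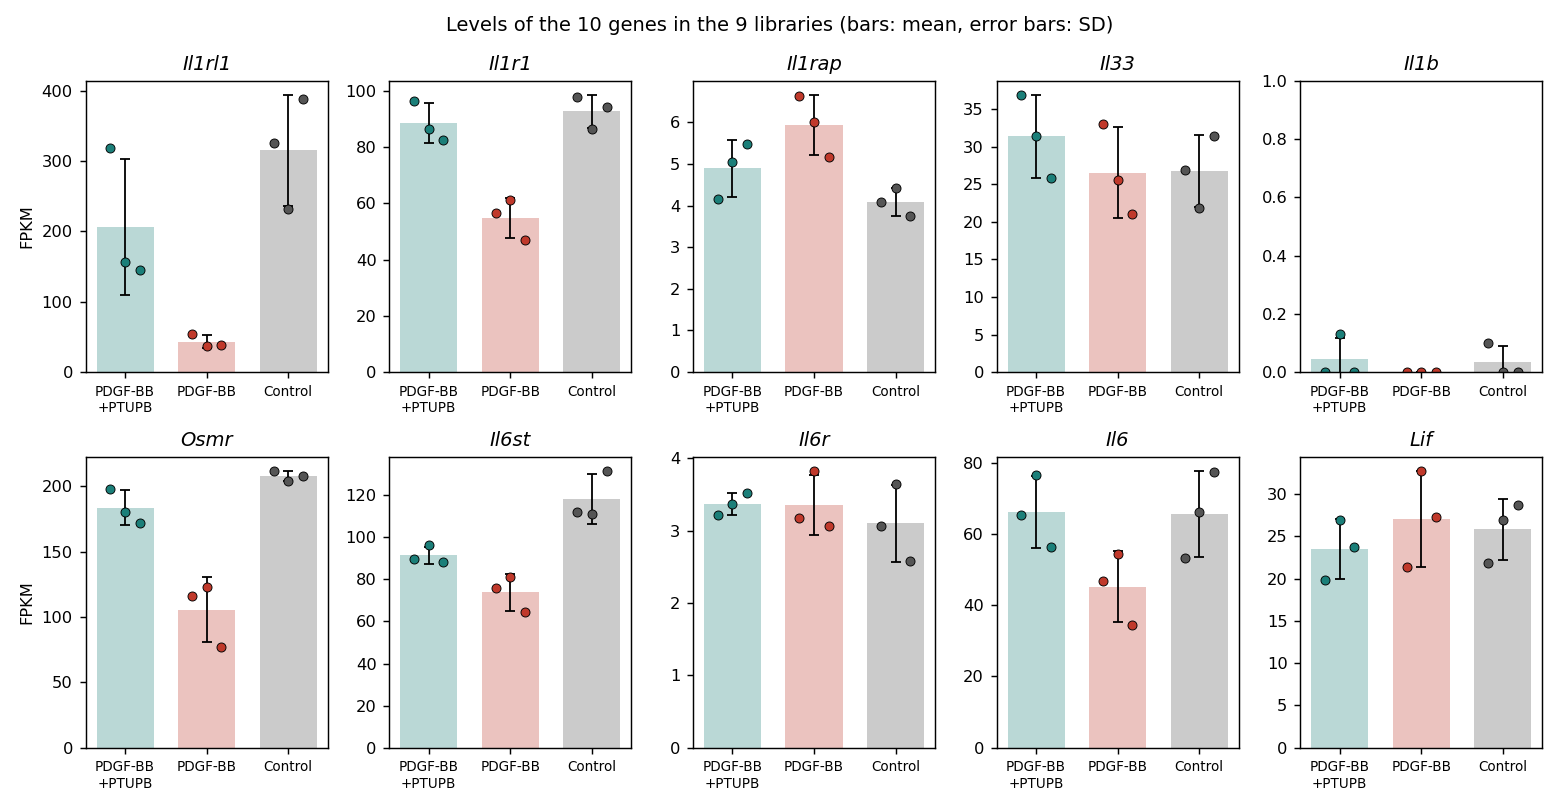
FPKM of each of the 10 genes in PDGF-BB+PTUPB, PDGF-BB and Control cells; points are libraries, with the mean and SD of each group (n = 3). Il1rl1, Il1r1, Osmr and Il6st are lower in every PDGF-BB library than in every Control library, whereas Il33, Il6r and Lif overlap.

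Il1rl1 (ENSRNOG00000014835, chromosome 9) was the most abundant member in Control cells and the member with the largest change. It read 54.3, 37.1 and 38.4 FPKM in PDGF-BB replicates 1 to 3, against 325, 232 and 389 FPKM in Control replicates 1 to 3. Every PDGF-BB library lay below every Control library. The fitted log2 change was -2.94 ± 0.33 (SE), a level 7.66-fold lower, and this is the change for which the gene was chosen. In PDGF-BB+PTUPB replicates 1 to 3 it read 318, 157 and 146 FPKM. All 3 exceeded every PDGF-BB library; replicate 1 stood among the Control values and replicates 2 and 3 below them. The log2 change was 2.30 ± 0.32 for PDGF-BB+PTUPB against PDGF-BB and -0.64 ± 0.30 for PDGF-BB+PTUPB against Control. These comparisons share libraries with the one that chose the gene and were not tested. Without PDGF-BB+PTUPB replicate 1 they were 1.85 and -1.09. By mean Control FPKM, Il1rl1 ranked 224 among 11197 tested genes.

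Il33 (ENSRNOG00000016456), whose product is held in the nucleus and released by injured cells, did not pass the test in any comparison. It read 36.9, 31.5 and 25.8 FPKM in PDGF-BB+PTUPB cells, 33.05, 25.6 and 21.04 FPKM in PDGF-BB cells and 26.9, 21.9 and 31.5 FPKM in Control cells. The 3 groups overlapped. The log2 change was -0.08 ± 0.19 for PDGF-BB against Control (95% interval -0.51 to 0.35; edgeR adjusted p = 0.771) and 0.29 ± 0.19 for PDGF-BB+PTUPB against PDGF-BB (95% interval -0.14 to 0.71; edgeR adjusted p = 0.343). Per unit length, the receptor transcript exceeded that of the ligand in every library, by 4.98 to 8.63 times in PDGF-BB+PTUPB, 1.45 to 1.83 times in PDGF-BB and 10.6 to 12.3 times in Control cells.

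Of the 8 tested members other than Il1rl1, 5 were called with PDGF-BB against Control (edgeR quasi-likelihood test, adjusted p under 0.05), against 33.2% of all tested genes: 4 fell, against 15.8%, and 1 rose, against 17.3%. The members were picked with earlier results known, so nothing is read from this count. Il1r1 (ENSRNOG00000014504), the signalling receptor for IL-1, read 56.5, 61.1 and 46.9 FPKM in PDGF-BB libraries, against 97.8, 86.4 and 94.3 FPKM in Control libraries. The groups did not overlap, and Il1r1 fell (-0.83 ± 0.11, edgeR adjusted p = 0.000298), a call that held in all 19 alternatives. Il1rap (ENSRNOG00000001928) was the member that rose, with 6.62, 6 and 5.17 FPKM in PDGF-BB cells, against 4.09, 4.41 and 3.75 FPKM in Control cells (0.47 ± 0.13, edgeR adjusted p = 0.0214). Its groups did not overlap either, but the call was lost without Control replicate 3 (0.0803), or PDGF-BB replicate 1 (0.084). The Il1r1 to Il1rap ratio of FPKM was 9.27 ± 0.852 in PDGF-BB and 22.9 ± 2.89 in Control libraries (SD, n = 3). The Il1rl1 to Il1rap ratio was 7.27 ± 1.02 in PDGF-BB and 78.7 ± 25.8 in Control libraries (SD, n = 3), which is a description, since it holds the fall for which Il1rl1 was chosen.

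In PDGF-BB+PTUPB against PDGF-BB, 4 of the 8 members were called, against 18.3% of all tested genes: 4 were higher, against 8.28%, and 0 were lower, against 10% (edgeR; 4 had an unadjusted p under 0.05, and DESeq2 called 4 higher and 0 lower). The count was 2 in 9 of 19 alternatives: limma at both pseudocounts, library totals, the replicate block, and leaving out PDGF-BB replicate 1 or 3 or any PDGF-BB+PTUPB library. Il1r1 read 96.4, 86.7 and 82.8 FPKM with PTUPB, above all PDGF-BB libraries (0.74 ± 0.11, edgeR adjusted p = 0.00219), and this call held in all 19 alternatives. Il1rap read 4.15, 5.05 and 5.47 FPKM in PDGF-BB+PTUPB cells, overlapped PDGF-BB and did not pass (-0.23 ± 0.13, edgeR adjusted p = 0.253). The other called members were Osmr, Il6st and Il6.

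**Figure D2:**
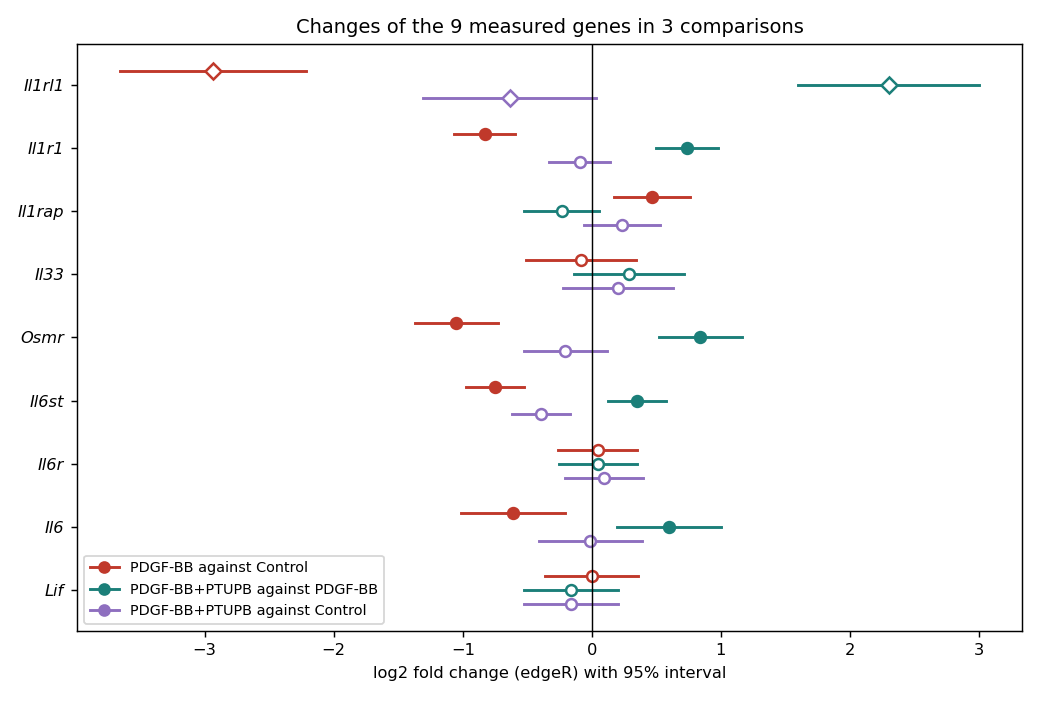
Log2 fold changes from edgeR (horizontal axis) with 95% intervals for the 9 members that passed the filter, in 3 comparisons; symbols separate called, not called and, for Il1rl1, not tested. Il1r1, Osmr, Il6st and Il6 lie below 0 for PDGF-BB against Control and above 0 for PDGF-BB+PTUPB against PDGF-BB, and the intervals of Il33, Il6r and Lif span 0.

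Il1rl1 and Il1r1 lie in a run of 6 IL-1 receptor family genes on the plus strand of chromosome 9, in the order Il1r2, Il1r1, Il1rl2, Il1rl1, Il18r1 and Il18rap. The inner genes were lower with PDGF-BB and higher with PTUPB over PDGF-BB. Il1rl2, the receptor gene for IL-36, read 14.97, 15.9 and 13.02 FPKM in PDGF-BB cells, against 26.9, 21.6 and 24.1 FPKM in Control cells (-0.80 ± 0.10, edgeR adjusted p = 0.000347). Il18r1, the binding chain for IL-18, read 1.01, 1.31 and 1.05 FPKM in PDGF-BB cells, against 2.91, 3.73 and 2.97 FPKM in Control cells (-1.58 ± 0.17, edgeR adjusted p = 0.000132). Neither gene's groups overlapped. With PTUPB, Il1rl2 read 25, 23.8 and 25.5 FPKM (0.80 ± 0.10, edgeR adjusted p = 0.00141, against PDGF-BB). Il18r1 read 4.18, 3.26 and 2.99 FPKM (1.67 ± 0.17, edgeR adjusted p = 0.000576). For both, every PDGF-BB+PTUPB library was above every PDGF-BB library, and the change against Control had a 95% interval of -0.22 to 0.23 for Il1rl2 and -0.27 to 0.45 for Il18r1.

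The outer genes of the run were not called with PDGF-BB. Il1r2, a decoy that binds IL-1 without signalling, read 20.9, 22.8 and 20.3 FPKM in PDGF-BB+PTUPB cells, 16.8, 13.9 and 15.9 FPKM in PDGF-BB cells and 12.2, 13.1 and 14.1 FPKM in Control cells. The PDGF-BB change did not pass (0.17 ± 0.10, edgeR adjusted p = 0.237), whereas all PDGF-BB+PTUPB libraries exceeded the other 6. Il1r2 rose over PDGF-BB (0.50 ± 0.10, edgeR adjusted p = 0.00868) and over Control (0.67 ± 0.10, edgeR adjusted p = 0.00755; 0.0567 without PDGF-BB+PTUPB replicate 2). Il18rap, the accessory chain for IL-18, did not pass (0.27 ± 0.15, edgeR adjusted p = 0.191), and the flanking genes Map4k4 and Mfsd9 changed by 0.007 (edgeR adjusted p = 0.957) and -0.004 (edgeR adjusted p = 0.99). Whether inner and outer genes differed in their change was not tested.

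**Figure D3:**
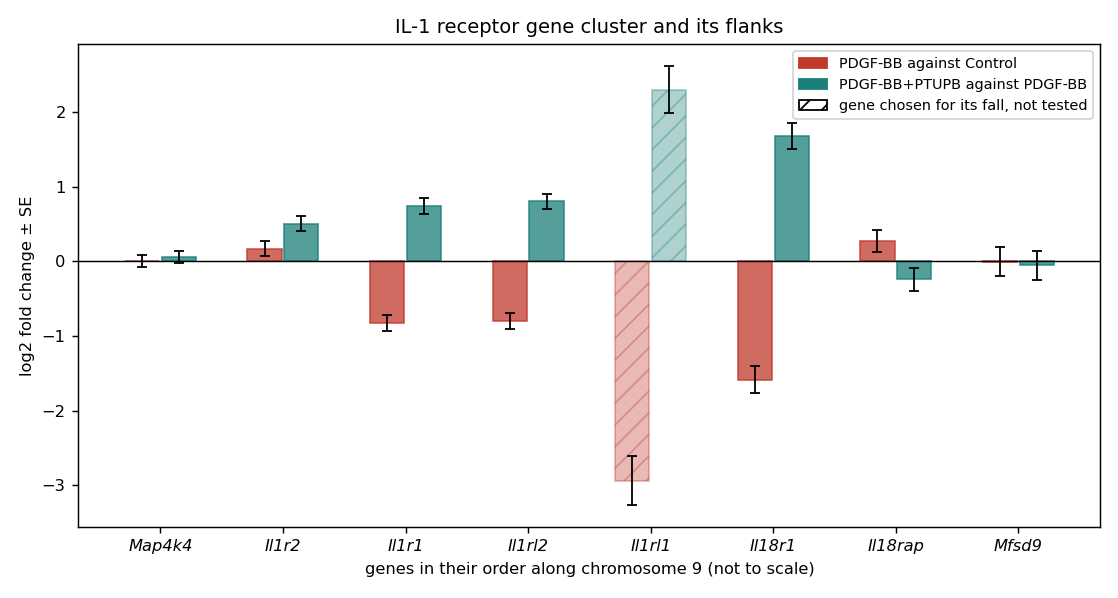
Log2 fold change with SE (vertical axis) of the receptor genes in their order along chromosome 9, with Map4k4 and Mfsd9 outside the run. Il1r1, Il1rl2, Il1rl1 (not tested) and Il18r1 point down with PDGF-BB against Control and up for PDGF-BB+PTUPB against PDGF-BB.

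Windows at the gene starts of these inner genes, and of the members Osmr, Il6st and Il6 described below, are shown because the genes were lower with PDGF-BB and higher with PTUPB over PDGF-BB. Each runs 5′ to 3′ from 250 bases before to 50 bases after a RefSeq gene start (build GRCr8); 9 of the 10 members, all but Lif, were matched. Capitals mark matches, on either strand, to 7 motifs. The AP-1 motif was searched as TGANTCA. The TATA box was searched as TATAAA. The motif of STAT factors was searched as TTCNNNGAA and that of C/EBP factors as TTGCNNCAA. The motif of GATA factors was searched as AGATAA, and NF-kB and the CArG box go by name.
Il1r1 (chr9:50034133-50034432, strand +): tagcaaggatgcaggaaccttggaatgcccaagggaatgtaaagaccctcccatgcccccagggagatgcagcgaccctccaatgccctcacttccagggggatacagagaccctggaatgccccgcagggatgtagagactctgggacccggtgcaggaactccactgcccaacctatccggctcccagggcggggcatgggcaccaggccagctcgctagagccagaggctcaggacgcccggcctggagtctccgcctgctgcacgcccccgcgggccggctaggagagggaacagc
Il1rl2 (chr9:50087302-50087601, strand +): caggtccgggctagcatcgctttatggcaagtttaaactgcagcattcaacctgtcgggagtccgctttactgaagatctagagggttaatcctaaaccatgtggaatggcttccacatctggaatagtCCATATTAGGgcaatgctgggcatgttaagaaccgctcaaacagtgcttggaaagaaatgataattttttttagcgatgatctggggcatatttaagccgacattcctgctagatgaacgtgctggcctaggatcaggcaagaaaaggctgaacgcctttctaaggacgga
Il1rl1 (chr9:50203388-50203687, strand +): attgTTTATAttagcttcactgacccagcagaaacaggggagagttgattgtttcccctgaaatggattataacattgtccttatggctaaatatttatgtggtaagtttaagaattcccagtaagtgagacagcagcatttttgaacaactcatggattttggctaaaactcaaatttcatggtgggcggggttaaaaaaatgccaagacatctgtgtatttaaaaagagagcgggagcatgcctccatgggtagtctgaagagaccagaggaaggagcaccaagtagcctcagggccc
Il18r1 (chr9:50223241-50223540, strand +): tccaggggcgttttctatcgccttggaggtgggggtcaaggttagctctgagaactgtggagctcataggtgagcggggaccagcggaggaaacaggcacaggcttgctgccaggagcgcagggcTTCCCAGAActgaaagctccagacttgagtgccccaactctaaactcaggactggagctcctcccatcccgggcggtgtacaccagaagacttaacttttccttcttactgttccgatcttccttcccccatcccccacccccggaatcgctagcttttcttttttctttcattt
Osmr (chr2:57688512-57688811, strand -): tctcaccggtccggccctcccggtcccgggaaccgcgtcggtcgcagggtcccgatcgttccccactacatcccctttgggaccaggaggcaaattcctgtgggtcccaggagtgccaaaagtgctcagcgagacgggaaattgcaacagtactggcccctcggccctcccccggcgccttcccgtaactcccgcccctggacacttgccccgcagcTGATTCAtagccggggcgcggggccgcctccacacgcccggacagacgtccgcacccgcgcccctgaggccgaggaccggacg
Il6st (chr2:45809982-45810281, strand +): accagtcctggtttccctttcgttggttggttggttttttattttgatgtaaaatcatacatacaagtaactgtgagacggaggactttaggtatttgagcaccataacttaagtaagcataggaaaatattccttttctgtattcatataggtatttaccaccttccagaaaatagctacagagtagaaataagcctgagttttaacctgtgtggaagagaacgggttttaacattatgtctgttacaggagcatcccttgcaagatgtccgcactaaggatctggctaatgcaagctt
Il6 (chr4:5894526-5894825, strand -): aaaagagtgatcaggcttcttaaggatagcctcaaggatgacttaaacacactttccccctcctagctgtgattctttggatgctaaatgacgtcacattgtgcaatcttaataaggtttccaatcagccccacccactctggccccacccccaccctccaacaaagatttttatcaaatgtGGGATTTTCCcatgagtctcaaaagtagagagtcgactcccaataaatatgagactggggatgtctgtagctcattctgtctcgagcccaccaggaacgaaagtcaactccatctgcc
No motif occurred in more than 1 of these windows. Il1rl1 held the TATA box letters on the minus strand at -246 to -240 from the start, and Il1r1 and Il6st held no match. Il1rl2 held a CArG box, present in 1.64% of all 33469 windows, and Il18r1 a STAT match (8.87%). Osmr held an AP-1 match (7.33%) and Il6 an NF-kB match (0.362%). The TATA box letters were present in 14.2% of all windows, GATA in 11.6% and TTGCNNCAA in 2.17%. A match describes letters and is not a site, and activity of the windows was not measured. Whether a RefSeq gene start is the start used in these cells was not tested, so a window may not be the promoter. The Il6st window holds an ATG within its last 50 bases, so its lack of a match may say nothing of the promoter.

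Both chains of the oncostatin M receptor fell with PDGF-BB. Osmr (ENSRNOG00000033192), the specific chain, read 116, 123 and 77.5 FPKM in PDGF-BB libraries, against 212, 204 and 208 FPKM in Control libraries (-1.05 ± 0.15, edgeR adjusted p = 0.000495). Il6st (ENSRNOG00000013963), which encodes gp130, read 75.9, 81.3 and 64.3 FPKM in PDGF-BB cells, against 112, 111 and 132 FPKM in Control cells (-0.75 ± 0.10, edgeR adjusted p = 0.000405). For both genes the groups were separate, and PDGF-BB replicate 3 was the lowest library. Lifr, a near neighbour of Osmr on chromosome 2 and no member, read 2.25, 2.35 and 1.36 FPKM in PDGF-BB cells, against 10.02, 6.38 and 10.7 FPKM in Control cells (-2.26 ± 0.23, edgeR adjusted p = 8.38e-05). The Osmr to Lifr ratio of FPKM was 53.7 ± 2.86 in PDGF-BB and 24.2 ± 6.81 in Control libraries (SD, n = 3).

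With PTUPB, Osmr read 198, 181 and 172 FPKM, above all PDGF-BB and below all Control libraries, and rose over PDGF-BB (0.84 ± 0.15, edgeR adjusted p = 0.00448). Lifr read 6.49, 6.72 and 5.86 FPKM and rose (1.73 ± 0.23, edgeR adjusted p = 0.00162). Both calls held in all 19 alternatives. Il6st read 89.5, 96.2 and 88.5 FPKM, also between the other groups, and rose (0.35 ± 0.10, edgeR adjusted p = 0.0361). That call was lost without PDGF-BB replicate 1 (0.0733) or 3 (0.0785), or PDGF-BB+PTUPB replicate 1 (0.0915) or 2 (0.127) or 3 (0.0803). It was also lost with library totals (0.0595), limma (up to 0.0588) and the replicate number as block (0.074).

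Il6r (ENSRNOG00000020811), the IL-6 binding chain, was the lowest receptor member and did not pass in any comparison. It read 3.21, 3.37 and 3.52 FPKM in PDGF-BB+PTUPB cells, 3.18, 3.83 and 3.06 FPKM in PDGF-BB cells and 3.07, 3.65 and 2.58 FPKM in Control cells. The groups overlapped, with a change of 0.04 ± 0.14 for PDGF-BB against Control (95% interval -0.26 to 0.35; edgeR adjusted p = 0.831). Per unit length, Il6st exceeded Il6r by 27.2 ± 1.81 times in PDGF-BB+PTUPB, 22 ± 1.62 times in PDGF-BB and 39.3 ± 10.6 times in Control libraries (SD, n = 3).

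Among the cytokine genes, Il6 (ENSRNOG00000010278) read 46.8, 54.3 and 34.5 FPKM in PDGF-BB cells, against 53.2, 66.3 and 77.5 FPKM in Control cells. PDGF-BB replicate 2 lay above Control replicate 1. Il6 fell (-0.61 ± 0.18, edgeR adjusted p = 0.0267), but the call was lost without Control replicate 3 (0.106), or PDGF-BB replicate 1 (0.0566) or 3 (0.0661). Leaving out both libraries that stood apart also ended it (0.0674), as did fitting these 2 groups alone (0.0636). With PTUPB, Il6 read 65.4, 76.7 and 56.5 FPKM, above all PDGF-BB libraries, and rose (0.60 ± 0.18, edgeR adjusted p = 0.0463). This call was lost in 11 of 19 alternatives (edgeR or limma adjusted p up to 0.162), among them without Control replicate 2 (0.0532), or PDGF-BB replicate 1 (0.0925) or 3 (0.103), or PDGF-BB+PTUPB replicate 1 (0.114) or 2 (0.162) or 3 (0.0538), and with the replicate number as block (0.0594).

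Lif (ENSRNOG00000007002) read 19.8, 26.9 and 23.8 FPKM in PDGF-BB+PTUPB cells, 21.4, 32.7 and 27.2 FPKM in PDGF-BB cells and 21.8, 26.96 and 28.7 FPKM in Control cells. The groups overlapped and no comparison passed (95% interval -0.37 to 0.36 for PDGF-BB against Control; edgeR adjusted p = 0.994). Il1b (ENSRNOG00000004649), the secreted IL-1 ligand, had 5 counts in all, 3 in PDGF-BB+PTUPB replicate 2 and 2 in Control replicate 1, and was not tested. For the 7 libraries at 0 counts, the limit that a count of 0 allows (3 counts) is 0.127 to 0.169 FPKM over all libraries, for counting error only. Il1rn, whose product blocks Il1r1, was abundant at 948 ± 119 FPKM in PDGF-BB+PTUPB, 875 ± 49.96 FPKM in PDGF-BB and 868 ± 29.7 FPKM in Control cells (SD, n = 3) and did not pass in any comparison.

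Ordered by mean FPKM, Control cells had Il1rl1, Osmr, Il6st, Il1r1, Il6, Il33, Lif, Il1rap and Il6r, and among neighbours in this order the libraries of Il33 and Lif overlapped. In PDGF-BB cells the order was Osmr, Il6st, Il1r1, Il6, Il1rl1, Lif, Il33, Il1rap and Il6r; Osmr overlapped Il6st, Il1r1 overlapped Il6, Il6 overlapped Il1rl1, and Lif overlapped Il33. In PDGF-BB+PTUPB cells the order was that of Control, and the overlapping neighbours were Il1rl1 and Osmr, Il6st and Il1r1, and Il33 and Lif. Il1rl1 made up 51.1% to 67.4% of the summed FPKM of 10 IL-1 receptor family genes in PDGF-BB+PTUPB libraries, 26.6% to 35.2% in PDGF-BB libraries and 63.7% to 73.1% in Control libraries.

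Set against Control directly, 0 of the 8 tested members were called in PDGF-BB+PTUPB cells by edgeR, against 2.21% of all tested genes (1.89% higher, 0.313% lower); 1 had an unadjusted p under 0.05, limma called 0 and DESeq2 called 1, Il6st. Il6st changed by -0.40 ± 0.10 (95% interval -0.62 to -0.17; edgeR adjusted p = 0.0909), and its groups did not overlap. It was called by DESeq2 (adjusted p = 0.0203), when PDGF-BB replicate 3 left the shared fit (edgeR adjusted p = 0.032) and when Control replicate 2 left as well (edgeR adjusted p = 0.00558), within 0.00558 to 0.35 over 19 alternatives. The interval was -0.53 to 0.11 for Osmr, -0.33 to 0.14 for Il1r1 and -0.41 to 0.39 for Il6. On the FPKM scale the PDGF-BB+PTUPB mean lay 39.7% of the way between the PDGF-BB and Control means for Il6st, 56.3% for Il1rap, 60.1% for Il1rl1, 76.1% for Osmr, 89% for Il1r1 and 103% for Il6. Without PDGF-BB+PTUPB replicate 1 the position was 39.7% for Il1rl1 and 36.3% for Il1rap, and no other single library left out moved a position by over 1.5 times. The comparisons share libraries, so these positions are a description.

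The 8 genes whose log2 level was most like that of Il1rl1 over the 9 libraries were Hs6st1, LOC299282, Dock9, Sugp2, Dusp1, Parm1, Clu and Kazn, with Pearson r of 0.986 to 0.99. They were picked for likeness, and the 3 groups themselves raise r; for deviations from the group means r was 0.867 to 0.947. Dusp1, a MAP kinase phosphatase gene, averaged 80.9 FPKM in PDGF-BB+PTUPB, 46.7 FPKM in PDGF-BB and 100.1 FPKM in Control cells. Clu, which encodes the secreted chaperone clusterin, averaged 994 FPKM in PDGF-BB+PTUPB, 625 FPKM in PDGF-BB and 1186 FPKM in Control cells. Among the members the order depended on the measure. Over the 9 libraries r was 0.957 for Il1r1, 0.932 for Osmr, 0.882 for Il6st, 0.764 for Il6 and 0.466 for Il33. For deviations from the group means Il33 had the highest r, 0.845, followed by Il1r1 (0.588), Osmr (0.373), Il6st (0.256) and Il6 (0.13). Il1rap, Il6r and Lif had negative r by both measures.

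Beyond the members, 126 pathway genes were listed and 95 tested. The lists were written with earlier results of these data known, so nothing is read from their counts, here or list by list below. With PDGF-BB against Control 28 fell (29.5%, against 15.8% of all tested genes) and 8 rose (8.42%, against 17.3%), with a median log2 change of -0.13, against -0.02 over all tested genes. In PDGF-BB+PTUPB against PDGF-BB 21 rose (22.1%, against 8.28% of all tested genes) and 9 fell (9.47%, against 10%), with a median of 0.11, against 0.006 over all. Against Control, 3 were higher in PDGF-BB+PTUPB cells, Il1r2 and Timp1 among them, and 0 lower by edgeR, and DESeq2 called 3 higher and 4 lower.

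Of 3 tested IL-1 family ligands and antagonists, Il1f10, the gene of IL-38, fell with PDGF-BB (-1.50 ± 0.30, edgeR adjusted p = 0.0035) and rose with PTUPB over PDGF-BB (1.602 ± 0.30, edgeR adjusted p = 0.00574). Il18bp, which neutralises IL-18, rose with PDGF-BB (0.58 ± 0.17, edgeR adjusted p = 0.0242), a call lost without Control replicate 1 (0.0789) or 3 (0.051), or PDGF-BB replicate 2 (0.0641) or 3 (0.0665). Leaving out both libraries that stood apart also ended this call (0.0609). Of 15 adaptors and kinases, 4 fell (26.7%, against 15.8% of all tested genes) and 1 rose (6.67%, against 17.3%) with PDGF-BB. Tollip (-0.48 ± 0.09, edgeR adjusted p = 0.0035) and Irak3 (-0.46 ± 0.11, edgeR adjusted p = 0.0085), which restrain the pathway, fell, as did the kinase gene Irak4 (-0.45 ± 0.09, edgeR adjusted p = 0.0046). Ube2n, a ubiquitin-conjugating enzyme gene, rose with PDGF-BB (0.49 ± 0.12, edgeR adjusted p = 0.00944) and fell with PTUPB (-0.52 ± 0.12, edgeR adjusted p = 0.0136). With PTUPB 2 of the 15 rose (13.3%, against 8.28% of all tested genes) and 1 fell (6.67%, against 10%). Irak4 rose (0.37 ± 0.09, edgeR adjusted p = 0.0215), a call lost without PDGF-BB replicate 2 (0.0818), or PDGF-BB+PTUPB replicate 1 (0.063) or 2 (0.0604) or 3 (0.083). Peli3 rose (0.43 ± 0.13, edgeR adjusted p = 0.04), a call lost in 11 of 19 alternatives. Among them were library totals (0.054), limma (up to 0.12) and the replicate block (0.0764). The call was also lost without Control replicate 3 (0.0579), or PDGF-BB replicate 1 (0.0955) or 2 (0.109), or PDGF-BB+PTUPB replicate 1 (0.134) or 2 (0.131).

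Of 16 NF-kB pathway genes 5 fell (31.2%, against 15.8% of all tested genes) and 0 rose (against 17.3%) with PDGF-BB. Nfkbia, the gene of an inhibitor of NF-kB (-0.42 ± 0.10, edgeR adjusted p = 0.0112), and the kinase gene Ikbkb (-0.32 ± 0.08, edgeR adjusted p = 0.0129) fell in all 19 alternatives. The subunit gene Rela fell (-0.26 ± 0.07, edgeR adjusted p = 0.0187), a call lost with library totals (0.0538) and with these 2 groups alone (0.0803). The call was also lost without Control replicate 1 (0.0717), or PDGF-BB replicate 1 (0.0567) or 2 (0.0584). Tnfaip3, which encodes a brake on NF-kB, fell (-0.45 ± 0.13, edgeR adjusted p = 0.0263), a call lost in 8 of 19 alternatives. Among them were library totals (0.0531) and limma (up to 0.0575). The call was also lost without Control replicate 1 (0.0562) or 2 (0.0726), or PDGF-BB replicate 2 (0.0752) or 3 (0.0508). With PTUPB 1 of the 16 fell (6.25%, against 10% of all tested genes) and 0 rose (against 8.28%). Nfkb1 was the gene that fell (-0.27 ± 0.07, edgeR adjusted p = 0.02), a call lost without PDGF-BB replicate 1 (0.0767), or PDGF-BB+PTUPB replicate 1 (0.0649) or 2 (0.0912) or 3 (0.0571).

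Of 21 JAK, STAT and SOCS genes 3 rose and 3 fell with PDGF-BB, 14.3% each way, near the shares of all tested genes (17.3% and 15.8%). Jak1 (-0.48 ± 0.09, edgeR adjusted p = 0.00276) and the feedback inhibitor gene Socs3 (-0.62 ± 0.15, edgeR adjusted p = 0.0101) fell, and Stat5a (0.66 ± 0.14, edgeR adjusted p = 0.00567) rose. Its target gene Cish rose too (0.52 ± 0.14, edgeR adjusted p = 0.0183), a call lost without Control replicate 1 (0.0649) or 3 (0.057), or PDGF-BB replicate 3 (0.0601). Stat2 also rose (0.24 ± 0.08, edgeR adjusted p = 0.0386), a call lost in 12 of 19 alternatives. With PTUPB 2 rose (9.52%) and 3 fell (14.3%), against 8.28% and 10% of all tested genes. Stat2 (-0.39 ± 0.08, edgeR adjusted p = 0.00772) fell in all 19 alternatives. Stat5a fell (-0.66 ± 0.14, edgeR adjusted p = 0.0108), a call lost without PDGF-BB+PTUPB replicate 2 (0.0507). Cish fell (-0.51 ± 0.14, edgeR adjusted p = 0.0336), a call lost without PDGF-BB replicate 2 (0.0502) or 3 (0.095), or PDGF-BB+PTUPB replicate 1 (0.111) or 2 (0.112) or 3 (0.0639). Socs3 rose (0.51 ± 0.15, edgeR adjusted p = 0.0398), a call lost in 10 of 19 alternatives. Among them were library totals (0.0568), limma (up to 0.0544) and the replicate block (0.0716). The call was also lost without Control replicate 3 (0.0582), or PDGF-BB replicate 1 (0.124) or 2 (0.102), or PDGF-BB+PTUPB replicate 1 (0.15) or 3 (0.073).

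Of 23 cytokine response targets 10 fell (43.5%, against 15.8% of all tested genes) and 2 rose (8.7%, against 17.3%) with PDGF-BB. With PTUPB over PDGF-BB 11 rose (47.8%, against 8.28%) and 3 fell (13%, against 10%). Complement C3 averaged 1558 FPKM in PDGF-BB+PTUPB, 999 FPKM in PDGF-BB and 1772 FPKM in Control cells, and fell with PDGF-BB (-0.90 ± 0.10, edgeR adjusted p = 0.000157). The chemokine genes Cxcl12 (-1.21 ± 0.10, edgeR adjusted p = 2.28e-05) and Cxcl6 (-1.62 ± 0.21, edgeR adjusted p = 0.000285) fell too. With PTUPB, Cxcl12 (0.79 ± 0.10, edgeR adjusted p = 0.000998), C3 (0.68 ± 0.10, edgeR adjusted p = 0.00237), Ccl7 (0.56 ± 0.11, edgeR adjusted p = 0.00604) and the IL-4 receptor gene Il4r (0.59 ± 0.09, edgeR adjusted p = 0.00237) rose. Timp1, a metalloprotease inhibitor gene, went the other way: it rose with PDGF-BB (1.30 ± 0.11, edgeR adjusted p = 3.22e-05), fell with PTUPB (-0.55 ± 0.11, edgeR adjusted p = 0.00807) and was above Control (0.75 ± 0.11, edgeR adjusted p = 0.00714).

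Of 7 AP-1 genes 2 fell (28.6%, against 15.8% of all tested genes) and 0 rose (against 17.3%) with PDGF-BB. Fos averaged 3.403 FPKM in PDGF-BB+PTUPB, 1.597 FPKM in PDGF-BB and 3.79 FPKM in Control cells. It fell with PDGF-BB (-1.32 ± 0.24, edgeR adjusted p = 0.00233) and rose with PTUPB (1.13 ± 0.24, edgeR adjusted p = 0.0108). Fosb fell with PDGF-BB (-0.68 ± 0.21, edgeR adjusted p = 0.0321), a call lost in 8 of 19 alternatives. Among them were limma (up to 0.0878) and the fits without Control replicate 1 (0.0891) or 3 (0.103), or PDGF-BB replicate 1 (0.101) or 2 (0.0934). Its PDGF-BB libraries read 0.71 to 1.03 FPKM, around the 1 FPKM of the filter, so this fall is a description. Jun fell with PTUPB (-0.39 ± 0.11, edgeR adjusted p = 0.0315), a call lost without PDGF-BB replicate 3 (0.0763), or PDGF-BB+PTUPB replicate 2 (0.109) or 3 (0.108), and with the replicate block (0.0669). The part of these factors in the level of Il1rl1 was not tested.

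**Figure D4:**
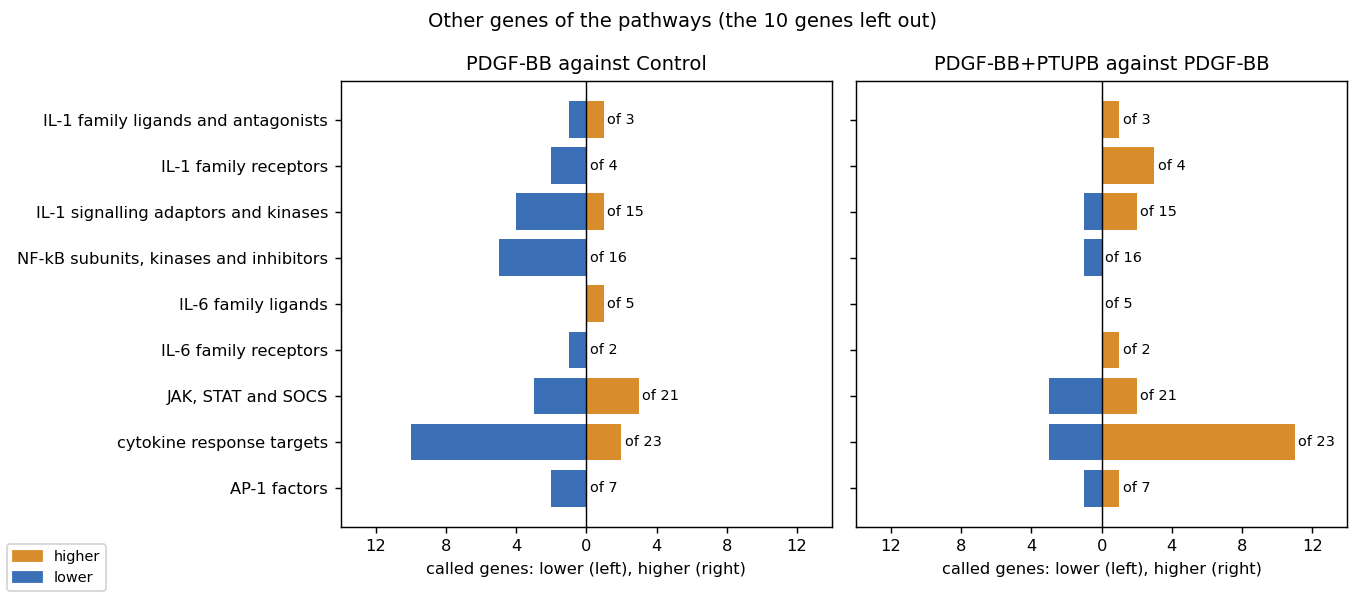
Number of genes of each pathway list called lower (left of 0) or higher (right of 0) by edgeR, for PDGF-BB against Control and PDGF-BB+PTUPB against PDGF-BB. The cytokine response targets have the longest bars, with 10 of 23 lower with PDGF-BB and 11 of 23 higher with PTUPB. Over all tested genes the shares were 15.8% and 8.28%. The lists were written with earlier results known, so nothing is read from these counts.

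Of 8 tested markers of adventitial fibroblasts, 6 fell (75%, against 15.8% of all tested genes) and 0 rose with PDGF-BB. With PTUPB over PDGF-BB, 4 rose (50%, against 8.28%) and 0 fell (edgeR). Both counts include Col14a1. Its PDGF-BB libraries read 0.89 to 1.15 FPKM, around the 1 FPKM of the filter, so its changes are a description. The called markers went in the directions of Il1rl1. Lum (edgeR adjusted p = 0.225 and 0.493) and Pi16 (edgeR adjusted p = 0.461 and 0.576) were not called in either comparison. The 10 listed markers summed to 1571 to 1799 FPKM in PDGF-BB+PTUPB, 1001 to 1384 FPKM in PDGF-BB and 1506 to 2504 FPKM in Control libraries, Lum and Dcn being the most abundant. Dpt and Cd34, also listed, averaged at most 0.0733 and 0.0267 FPKM in a group. Scara5, among these markers, averaged 131 FPKM in PDGF-BB and 339 FPKM in Control cells (-1.44 ± 0.10, edgeR adjusted p = 1.44e-05). Of 8 tested smooth muscle markers 4 fell (50%, against 15.8% of all tested genes) and 1 rose (12.5%, against 17.3%) with PDGF-BB. With PTUPB over PDGF-BB 1 rose (12.5%, against 8.28%) and 0 fell (against 10%). Myh11, among them, fell with PDGF-BB (-1.041 ± 0.135, edgeR adjusted p = 0.000326) and rose with PTUPB (0.544 ± 0.136, edgeR adjusted p = 0.021). Synpo2 went the other way: it rose with PDGF-BB (0.51 ± 0.139, edgeR adjusted p = 0.0175) and was not called with PTUPB (-0.351 ± 0.138, edgeR adjusted p = 0.107). Tagln (0.281 ± 0.131, edgeR adjusted p = 0.127) and Cnn1 (0.323 ± 0.152, edgeR adjusted p = 0.129) were not called with PDGF-BB. All 10 listed smooth muscle markers summed to 2669 to 2898 FPKM in PDGF-BB+PTUPB, 2586 to 2789 FPKM in PDGF-BB and 2177 to 3098 FPKM in Control libraries. Macrophage markers summed to 23.2 to 24.0 FPKM in PDGF-BB+PTUPB, 17.4 to 19.0 FPKM in PDGF-BB and 17.4 to 26.3 FPKM in Control libraries; Ptprc and Cd163 had 0 counts. Cd14 averaged 18.5 FPKM in PDGF-BB+PTUPB cells, and Adgre1, Csf1r, Itgam, Aif1 and Mrc1 averaged at most 0.18 FPKM in a group. Of the 3 macrophage markers tested, 1 was called lower and 0 higher with PDGF-BB, Lyz2 (-1.80 ± 0.24). It averaged 1.81 FPKM in PDGF-BB+PTUPB, 0.607 FPKM in PDGF-BB and 2.03 FPKM in Control cells. Lyz2 passed the filter only through PDGF-BB+PTUPB and Control libraries, so its changes are a description. With PTUPB over PDGF-BB 2 were called higher and 0 lower, Lyz2 (1.61 ± 0.24) and Cd14 (0.47 ± 0.13, edgeR adjusted p = 0.0304). Cd68 was not called in either comparison (0.115 and -0.141). The part of other cell types in the member results was not tested.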

How the data were processed

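RNA was profiled in 9 libraries, grouped by their labels. The submitters' processing notes list cutadapt 1.9.1, HISAT2 2.0.1 and HTSeq 0.6.1. They name a mouse build, mm10, while all 32623 identifiers are rat Ensembl ones, so no coordinates of the file are given. The deposited table holds an expected count and an FPKM per gene; 978 genes, 0 of them members, had counts that were not whole. FPKM recomputed from the counts lay within 0.006 of the deposited FPKM for 100% of values. Whether counting used strand is not given in the sources used here; no other listed gene overlaps a member. The result of 1 listed gene is not reported here.

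Counts were rounded and fitted in edgeR 4.0.16 under R 4.3.3 (TMM, two-sided quasi-likelihood test, all 9 libraries together, 6 residual degrees of freedom). The fit took 11197 genes that reached 1 FPKM in 3 or more libraries. P-values were adjusted by Benjamini-Hochberg over all of these, with calls under 0.05; 95% intervals are unadjusted. The procedure was tested on simulated data. Alternatives were limma 3.58.1, DESeq2 1.42.0, other scalings and filters, 2 groups alone, a replicate block and libraries left out; for positions between group means, this was chosen after seeing the data. The members and lists were chosen with earlier results of these data known. Named genes are the members, up to 4 called genes per list and comparison by smallest p, the 8 genes most like Il1rl1 and, per marker list, the most abundant and those at 0. Il18rap, Il1rn, Map4k4, Mfsd9, Scara5, Col14a1, Pi16, Dpt, Cd34, Myh11, Synpo2, Cnn1 and the macrophage markers above 0 were named after their values were seen. Il37, Ube2v1, Il31 and Saa1 were not analysed here.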

Additional observations from a re-analysis of the deposited data

How the results depend on the processing

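Over 19 alternatives 0 of the 27 member results reversed, counting for tested members a change of sign only where a call was made. Changes that were not called did differ in sign, such as Il33 (-0.275 to 0.057) and Lif (-0.138 to 0.14) with PDGF-BB. In at least 1 alternative 5 results changed side of the threshold: Il1rap and Il6 with PDGF-BB, Il6 and Il6st with PTUPB over PDGF-BB, and Il6st against Control. Of 99 results of other named genes, 27 changed side. With PDGF-BB against Control, 3 to 5 members were called with 1 library left out. In PDGF-BB+PTUPB against PDGF-BB, 2 members were called with library totals, 2 with limma at either pseudocount (1 or 0.1), 2 with the replicate block and 2 to 4 with 1 library left out. In that comparison, leaving out 1 library gave 1002 to 2463 genes and 18 to 33 pathway genes. In PDGF-BB+PTUPB against Control, edgeR called 247 genes, DESeq2 441 genes, 7 pathway genes and 1 member, and edgeR without Control replicate 2 and PDGF-BB replicate 3 called 1345 genes, 11 pathway genes and 1 member. There, leaving out 1 library gave 93 to 340 genes, 2 to 6 pathway genes and 0 to 1 members. The causes were not tested. Library totals gave 2410 higher and 1350 lower genes with PDGF-BB, against 1942 and 1772 by TMM, and 759 higher and 1414 lower with PTUPB over PDGF-BB, against 927 and 1121. Deviations of same-numbered libraries from their group means had r of -0.266 to 0.185 over 9 pairs, 2 of them over 0.1. Such deviations sum to 0 within a group of 3, so they cannot settle whether the numbers pair libraries. The replicate block gave 3294, 1602 and 168 genes in the 3 comparisons. Depth limits Il1b.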
